A study of Mus musculus with 8 samples.

Results

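The neuronal calcium sensors and calmodulin-dependent protein kinases described here are 10 named genes out of 23523 gene features measured by RNA-seq in mouse brain and mouse glioblastoma. They were taken by name, but with earlier results of these data known, so the choice was not blind to their values. The genes are the 4 subunit genes of CaM kinase II (Camk2a, Camk2b, Camk2d, Camk2g), the nuclear kinase gene Camk4, the pseudokinase gene Camkv, the calcium sensor genes Hpca and Vsnl1, the calmodulin-binding protein gene Nrgn, and the inositol trisphosphate kinase gene Itpka. All 10 were among the 14641 genes with enough fragments to be tested, and none of them had a value marked as a failed estimate.

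The study set 3 libraries of normal mouse brain beside 5 libraries of glioblastoma raised in mice with a lentivirus that carries activated Ras (HrasG12V) together with an shRNA directed at p53. The tumours were collected at the clinical endpoint and freed of normal brain under a dissecting microscope by their green fluorescence. The labels give no strain, age or brain region, no promoter or target cell for the vector, no vector treatment of the normal brains, and do not say whether 1 animal gave 1 library, which means that p-values here measure only the spread between the libraries at hand. Both groups are bulk tissue, in which fewer neurons and less RNA per neuron cannot be told apart. Removal of normal brain applies to the tumours only, and its part in the falls was not tested.

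When calcium enters a neuron it binds calmodulin and a family of related EF-hand proteins, and these pass the signal on to enzymes. Calcium-loaded calmodulin opens the CaM kinase II holoenzyme, a ring of alpha, beta, gamma and delta subunits that can keep itself active by phosphorylating itself and that is needed for synaptic plasticity. The alpha and beta subunits are best known from forebrain neurons, while the gamma and delta subunits are made in many tissues. CaM kinase IV acts in the nucleus on transcription factors such as CREB, and neurogranin holds calmodulin at the dendritic membrane while calcium is low.

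In the tumours 9 of the 10 genes were lower than in normal brain and 0 were higher (edgeR quasi-likelihood test, adjusted p under 0.05 over all genes tested). Over all genes tested 33.9% were called lower and 37.1% higher by the same rule. The median log2 fold change of the 10 genes, tumour minus brain, was -6.12, and that of all genes tested was 0.06. In 9 of the 10 genes every tumour lay below every brain, which held for 34.5% of all genes tested, and in 0 did every tumour lie above every brain (36.1% of all). A called fall beyond a log2 fold change of -5 was found for 2.42% of all genes and for 7 of these 10. No member rose at an unadjusted p under 0.05 either, since all 10 fold changes were negative, and DESeq2 and limma called 0 higher as well.

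**Figure D1:**
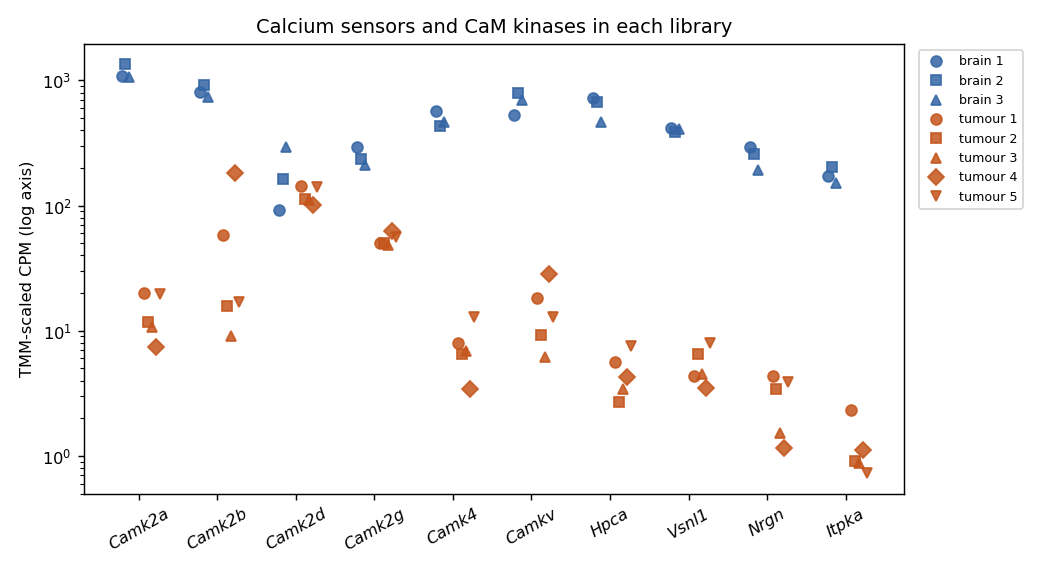
Levels (CPM, scaled by TMM factors, log axis) of the 10 genes in each of the 3 normal brain and 5 glioblastoma libraries; 1 point is 1 library. The 2 groups are separate for every gene but Camk2d, and tumour 4 stands above the other tumours for Camk2b.

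Camk2a encodes the alpha subunit of CaM kinase II, the most abundant kinase of the postsynaptic density in the forebrain. Its level was 1075, 1343 and 1071 CPM (the fragment count relative to the TMM-scaled library total) in brains 1 to 3, and 19.9, 11.7, 10.7, 7.45 and 19.6 CPM in tumours 1 to 5. The groups were far apart, and tumour 4 was the lowest library. The resulting log2 fold change was -6.39 ± 0.35 (SE), an 84.0-fold fall, with a 95% interval of -7.26 to -5.53 and an edgeR adjusted p of 1.6e-06.

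Camk2b encodes the beta subunit, which ties the holoenzyme to actin filaments. It was at 804, 920 and 731 CPM in the brains and at 58.2, 15.9, 9.07, 181 and 17 CPM in tumours 1 to 5. Every tumour was below every brain, but the tumours differed among themselves by more than those of any other member, with tumour 4 highest and tumour 1 next. The log2 fold change was -3.85 ± 0.91 (SE; 95% interval -6.07 to -1.63; edgeR adjusted p = 0.0046). Without tumour 4 it was -5.03 with an adjusted p of 6.4e-05 by edgeR, so this 1 library moved the value more than the error of the full comparison.

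Camk2g, the gamma subunit gene, fell as well. Its level was 291, 234 and 212 CPM in the brains and 50.4, 49.8, 48.8, 63.2 and 55.8 CPM in the tumours. The tumours lay close together and below all brains. This gave a fold change of -2.20 ± 0.15 on the log2 scale (SE; 95% interval -2.56 to -1.84; edgeR adjusted p = 4.0e-06), a 4.58-fold fall.

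Camk2d, the delta subunit gene, was the only member whose groups overlapped. It was at 92.0, 162 and 292 CPM in brains 1 to 3 and at 144, 112, 111, 100.4 and 141 CPM in the tumours. The brains spread more widely than the tumours, from below every tumour in brain 1 to above every tumour in brain 3. The log2 fold change was -0.58 ± 0.32 (SE; 95% interval -1.37 to 0.20) and did not pass the test (edgeR adjusted p = 0.13). The brains decided this value: without brain 1 it was -0.90 and passed (edgeR adjusted p = 0.015), and without brain 3 it was -0.06 and did not (edgeR adjusted p = 0.86). Brain 1 also held the most RNA of 6 genes of myelinating oligodendrocytes, 5737 CPM in sum against 2944 and 2928 CPM in brains 2 and 3, and the part of this in the Camk2d value was not tested.

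Camk4 encodes CaM kinase IV, the nuclear kinase of the family. It was at 574, 431 and 465 CPM in the brains and at 7.91, 6.49, 6.93, 3.44 and 12.9 CPM in the tumours. All tumours were far below all brains, with tumour 4 lowest and tumour 5 highest. Camk4 thus fell 64.8-fold, or by 6.02 ± 0.38 (SE) on the log2 scale, with an edgeR adjusted p of 3.3e-06.

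Camkv encodes a vesicle-associated protein with a CaM kinase fold and no known kinase activity. It was at 530, 791 and 692 CPM in the brains and at 18.3, 9.20, 6.18, 28.3 and 12.8 CPM in the tumours. The groups did not overlap, and tumours 4 and 1 were again the highest tumours, as for Camk2b. Its log2 fold change was -5.47 ± 0.47 (SE; edgeR adjusted p = 1.4e-05).

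Hippocalcin (Hpca) and visinin-like 1 (Vsnl1) are neuronal calcium sensors that move to membranes when they bind calcium. Hpca was at 730, 676 and 468 CPM in the brains and at 5.58, 2.71, 3.40, 4.25 and 7.51 CPM in the tumours. Vsnl1 was at 414, 388 and 408 CPM in the brains and at 4.34, 6.49, 4.54, 3.49 and 8.0 CPM in the tumours. Tumour 5 was the highest tumour for both genes, and neither gene had a tumour near the brain level. The log2 fold change was -7.03 ± 0.35 (SE) for Hpca, a 131-fold fall with an edgeR adjusted p of 9.7e-07. For Vsnl1, the member with the smallest spread between brains, it was -6.23 ± 0.28 (SE; edgeR adjusted p = 5.8e-07).

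Neurogranin (Nrgn) was at 294, 259 and 193 CPM in the brains and at 4.34, 3.43, 1.51, 1.16 and 3.88 CPM in the tumours. Its tumour level rested on 12 to 48 fragments per library. Tumours 3 and 4 were the lowest. On the log2 scale the fold change was -6.47 ± 0.43 (SE; edgeR adjusted p = 4.2e-06), an 88.8-fold fall.

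Itpka encodes inositol trisphosphate 3-kinase A, a calmodulin-stimulated enzyme of dendritic spines that turns the calcium-releasing messenger into a tetrakisphosphate and also bundles actin. It was at 174, 204 and 151 CPM in the brains and at 2.33, 0.90, 0.88, 1.11 and 0.73 CPM in the tumours. These tumour levels came from 5 to 19 fragments per library, and tumour 1 was the highest of them. The log2 fold change was -7.25 ± 0.33 (SE; 95% interval -8.05 to -6.44; edgeR adjusted p = 6.7e-07), the largest fall of the 10 genes and rank 18 among the falls of 14641 genes. Hpca had rank 20, Nrgn 53, Camk2a 58, Vsnl1 75, Camk4 105 and Camkv 216, while Camk2b had rank 883 and Camk2g 2128.

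Levels of different genes were compared per transcript length, in FPKM. In normal brain Hpca had the highest level, 457 ± 101 FPKM (SD, n = 3), above every library of the other 9 genes. Camk2a (232 ± 31.3), Camkv (225 ± 44.7), Vsnl1 (220 ± 7.14), Nrgn (216 ± 44.0) and Camk2b (204 ± 23.8 FPKM) followed and did not differ beyond their spread. Itpka was lower, at 104 ± 15.65 FPKM, and then came Camk2g (67.3 ± 11), Camk2d (42.5 ± 23.8) and Camk4 (38.2 ± 5.70 FPKM), of which Camk2d overlapped with both of the others. The order in the tumours was another one. Camk2d had the highest mean, 28.1 ± 4.51 FPKM (SD, n = 5), followed by Camk2g at 14.6 ± 1.40 FPKM. Camk2b averaged 13.8 ± 17.7 FPKM, a mean carried by 44.4 FPKM in tumour 4. Camkv, Hpca, Vsnl1, Camk2a and Nrgn lay between 2.47 and 4.95 FPKM and overlapped, and Itpka (0.70 ± 0.38) and Camk4 (0.58 ± 0.26 FPKM) were lowest and overlapped.

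The 4 CaM kinase II genes together reached 514, 600 and 524 FPKM in the brains and 65.5, 47.1, 43.5, 85.5 and 55.2 FPKM in the tumours. Within this sum the shares of the subunit genes changed, while none of the 4 genes was called higher. Camk2a made up 41.0 to 44.7% of it in the brains and 1.74 to 7.03% in the tumours, and Camk2d 4.14 to 13.0% in the brains and 26.7 to 58.9% in the tumours. The Camk2g share was 10.7 to 15.5% in the brains and 19.7 to 30.8% in the tumours. For Camk2b the shares were 34.9 to 38.8% in the brains and 22.0, 8.55, 5.17, 51.9 and 7.53% in tumours 1 to 5, so that tumour 4 alone exceeded the brains.

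**Figure D2:**
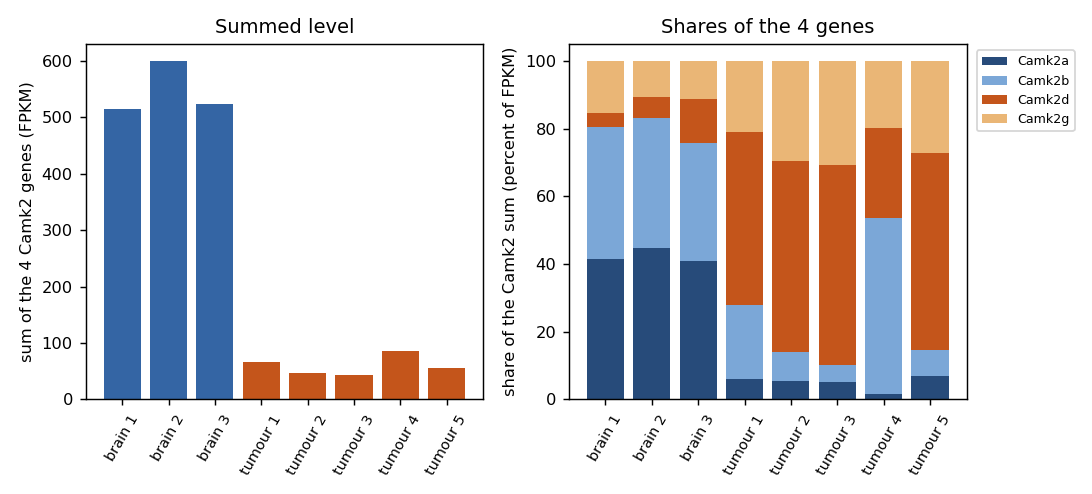
Left, the summed FPKM of Camk2a, Camk2b, Camk2d and Camk2g in each library; right, the share of each gene in that sum (percent of FPKM); 1 bar is 1 library. Camk2d holds the largest share in tumours 1, 2, 3 and 5, and Camk2b in tumour 4.

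The change in shares was tested as the FPKM ratio of each subunit gene to Camk2a within a library, which does not depend on library scaling. Camk2a fell most of these genes, so a rise in the ratios follows from the falls given above. It does not show that another subunit gene rose. The Camk2d to Camk2a ratio was 0.0997, 0.141 and 0.318 in the brains and 8.52, 10.4, 11.6, 15.4 and 8.28 in the tumours. In every brain Camk2d was the minor partner, and in every tumour the major one. On the log2 scale the tumours were higher by 6.0, a 64.1-fold shift (exact permutation test, two-sided, p = 0.036, adjusted over 3 ratios 0.036). This p is the smallest that 3 against 5 libraries can give.

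The Camk2g to Camk2a ratio was 0.372, 0.239 and 0.272 in the brains and 3.48, 5.49, 6.06, 11.3 and 3.88 in the tumours. It too was below 1 in all brains and above 1 in all tumours, with a log2 difference of 4.25 (exact permutation test, adjusted p = 0.036). The Camk2b to Camk2a ratio was 0.934, 0.857 and 0.852 in the brains and 3.66, 1.58, 1.02, 29.9 and 1.07 in the tumours. All tumours again lay above all brains, but tumours 3 and 5 were close to them. The log2 difference of 1.70 (exact permutation test, adjusted p = 0.036) dropped to 0.85 without tumour 4, where the smallest possible p is 0.057. Leaving out any 1 library takes all 3 ratios out of reach of the threshold.

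CaM kinase II subunits share a catalytic part and an association part and differ in a variable linker between them, which is built from small alternative exons. The deposited table gives estimated fragments for each RefSeq transcript accession, and all 9 accessions of Camk2b, Camk2d and Camk2g could be matched to a GENCODE M21 transcript (GRCm38), whose exons are used below. In each of these 3 genes 1 accession was called lower in the tumours, and it carried linker exons that the other accessions of the gene lack in whole or in part. Their sequences are shown as parts of the forms that fell, though 1 of them, in Camk2g, is also in a form that was not called. Capitals are the linker exons and lower case the 10 coding bases on each side, 5′ to 3′ on the coding strand. The first runs over exons of 60 bases (chr3:126805857-126805916) and 42 bases (chr3:126808208-126808249) on the + strand, the second over exons of 33 bases (chr14:20747819-20747851) and 69 bases (chr14:20745792-20745860) on the - strand, and the third over 1 exon of 75 bases (chr11:5987057-5987131) on the - strand.
Camk2d, in NM_001025439: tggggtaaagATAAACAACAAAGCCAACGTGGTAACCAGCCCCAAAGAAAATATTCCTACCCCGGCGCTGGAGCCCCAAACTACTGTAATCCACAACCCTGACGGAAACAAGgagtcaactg
Camk2g, in NM_178597: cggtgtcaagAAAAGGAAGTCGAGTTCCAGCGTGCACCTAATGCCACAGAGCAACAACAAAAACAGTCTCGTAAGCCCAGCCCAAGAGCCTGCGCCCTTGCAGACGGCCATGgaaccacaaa
Camk2b, in NM_007595: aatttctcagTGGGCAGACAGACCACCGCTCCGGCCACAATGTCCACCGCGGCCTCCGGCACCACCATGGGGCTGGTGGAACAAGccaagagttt

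All 5 exon lengths are multiples of 3, so each exon can be left out without shifting the reading frame. The 60-base and 42-base exons of Camk2d were only in NM_001025439, and the 75-base exon of Camk2b only in NM_007595. In Camk2g the 33-base exon, which is known to add a nuclear localization signal, was only in NM_178597, and the 69-base exon was also in NM_001039138.

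The long Camk2d form, NM_001025439, had 283, 337 and 830 estimated fragments in the brains and 31.6, 46.3, 24.3, 28.3 and 28.3 in the tumours. Fragments here and below are not scaled to library size. In CPM this form was at 47.9, 48.6 and 113 in the brains and 4.96, 8.30, 3.02, 1.63 and 2.26 in the tumours. It made up 29.8 to 51.8% of the FPKM of the gene in the brains and 1.61 to 7.39% in the tumours, with no overlap. Its log2 fold change was -4.10 ± 0.58 (SE; edgeR on accessions, adjusted p = 0.00072), although the gene as a whole did not pass the test. The share of NM_001025438, which lacks both exons, was 29.2 to 38.1% in the brains and 53.2 to 97.1% in the tumours, with a log2 fold change of 0.46 that did not pass (edgeR adjusted p = 0.36). NM_023813, which also lacks them, had a log2 fold change of -0.57 (edgeR adjusted p = 0.71). The long form also uses another copy of a 73-base catalytic exon (chr3:126771774-126771846 in place of chr3:126770785-126770857), so the fall cannot be assigned to the linker exons alone.

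The Camk2g form with the nuclear localization signal, NM_178597, had 729, 957 and 554 estimated fragments in the brains, a share of 35.1 to 58.4% of the FPKM of the gene. In all 5 tumours it was listed at under 0.1 fragment and under 0.03% of the gene. It was called lower by edgeR (adjusted p = 0.00024). None of these values was marked as failed, but values this close to 0 can be errors of the split between forms, so no fold is given. NM_001039138, with the 69-base exon only, was at 243, 7.91 and 467 estimated fragments in the brains. In the tumours it was at 325, 146, 165, 1085 and 393 (log2 fold change 0.18, edgeR adjusted p = 0.89). In CPM it was at 41.1, 1.15 and 63.7 in the brains and 50.4, 26.3, 20.8, 63.2 and 31.8 in the tumours. NM_001039139, with neither exon, was at 751, 654 and 537 in the brains and was listed at or near 0 in tumours 1 and 4 but at 130, 222 and 298 in tumours 2, 3 and 5 (edgeR adjusted p = 0.17). The split between these 2 forms thus varied from library to library in both groups.

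The Camk2b form with the 75-base exon, NM_007595, held 95.4 to 97.4% of the FPKM of the gene in the brains and fell by 5.48 ± 0.67 on the log2 scale (SE; edgeR adjusted p = 0.00036). In brain it had 4588, 6214 and 5119 estimated fragments, and in the tumours 306, 66.8, 72.0, 178 and 93.2. In CPM it was at 776, 897 and 698 in the brains and 47.5, 12.1, 9.07, 10.4 and 7.51 in tumours 1 to 5. Tumour 4, which had the most Camk2b of the tumours, thus had no more of this form than tumour 1. Its Camk2b fragments were estimated to come from NM_001174054 (2045 fragments, 66.0% of the FPKM of the gene) and NM_001174053 (890 fragments, 28.4%), and only 5.68% of the FPKM from NM_007595. Neither of these 2 accessions passed the test over all libraries (log2 fold changes 1.03 and -0.11; edgeR adjusted p = 0.71 and 0.96). The matched transcript of NM_001174054 is 1875 bases long against 4023 and 4004 bases for the other 2, so FPKM shares weight its fragments more. The Camk2b forms also differ in other coding exons, so the fall of NM_007595 cannot be assigned to the 75-base exon alone.

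**Figure D3:**
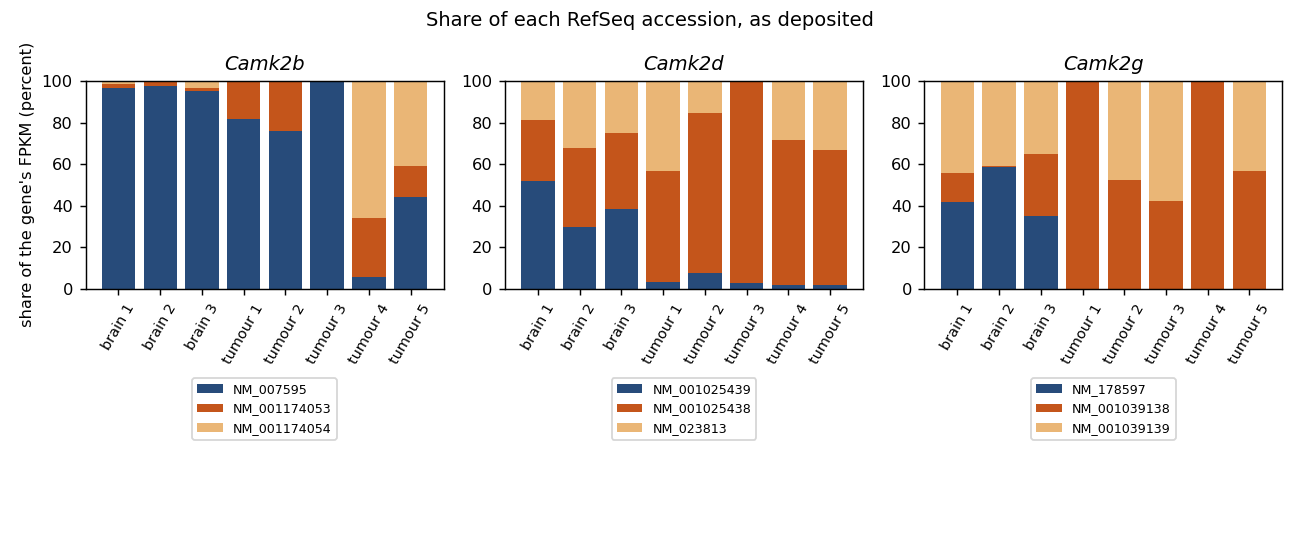
Share of each RefSeq accession in the deposited FPKM of its gene (percent) in each library, for Camk2b, Camk2d and Camk2g; dark blue is the accession whose linker exons are printed in the text. The blue share is above 29% in all brains for each gene, is at most 7.39% in the tumours for Camk2d and under 0.03% for Camk2g, and varies between tumours for Camk2b.

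Over all members the table held 20 accessions, of which 13 were lower by themselves, 0 higher (also at an unadjusted p under 0.05) and 7 not called (edgeR; 25.4% of 18583 accessions were called lower and 30.4% higher). The 7 without a call belonged to the 4 CaM kinase II genes, and each of these genes had exactly 1 accession called lower. All 4 accessions of Hpca were lower, and Camk4, Camkv, Vsnl1, Nrgn and Itpka have 1 accession each. In each tumour, however, most Hpca fragments were assigned to 1 accession, a different one in tumour 3 than in the other tumours. Most tumour values of the remaining Hpca accessions were at or near 0 and can be errors of the split, so these 4 calls are not separate evidence. Splitting fragments between accessions is an estimate whose own error is not in these tests, while the sum per gene was a whole number for all 10 members in all 8 libraries.

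Promoter sequences of RefSeq (GRCm38.p6) were matched for 7 of the 10 members, all but Camk2a, Camk2g and Camk4, with 10 start sites in all. The 250 bases before the start are shown for Itpka (chr2:119742087-119742336, + strand), which fell most, and for Camk2d (chr3:126596701-126596950, + strand), which did not pass the test. Capitals mark the GC box GGGCGG or its reverse complement CCGCCC.
Itpka: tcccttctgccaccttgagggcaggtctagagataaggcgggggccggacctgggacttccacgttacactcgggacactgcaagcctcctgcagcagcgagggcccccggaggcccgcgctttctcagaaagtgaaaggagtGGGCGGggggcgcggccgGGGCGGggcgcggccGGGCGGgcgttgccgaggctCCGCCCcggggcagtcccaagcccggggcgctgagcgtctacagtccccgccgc
Camk2d: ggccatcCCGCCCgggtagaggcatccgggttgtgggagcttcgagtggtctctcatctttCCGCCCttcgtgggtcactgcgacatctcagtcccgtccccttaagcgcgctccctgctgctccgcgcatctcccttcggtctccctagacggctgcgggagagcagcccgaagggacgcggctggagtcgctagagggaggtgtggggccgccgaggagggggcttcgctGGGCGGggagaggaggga

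The Itpka window held 4 GC boxes and the Camk2d window 3. At least 1 was present in 8 of the 10 member windows, against 32.7% of 32851 promoter windows of the same length. Each of the 7 genes had a window with a match, but no share per gene was computed for comparison. Hpca and Vsnl1, which have several windows, each also had 1 without a GC box. The full cyclic AMP response element TGACGTCA, the site of CREB, was in 0 of the 10 windows and in 1.55% of all windows. The TATA box TATAAA, on either strand, was in 0 of the 10 and in 12.4% of all. Both promoters printed are rich in CG pairs, with 26 in Itpka and 23 in Camk2d against a median of 6 over all windows. These letters therefore did not set the gene that fell most apart from the one that did not pass, and a match says nothing of whether a factor binds.

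The rest of the calcium and calmodulin pathway was described with lists of 102 genes, of which 99 were tested: 62 were lower, 16 higher and 21 not called, with a median log2 fold change of -1.81. The share called over all genes, 33.9% lower and 37.1% higher, is the background for each list below. Among the calmodulin genes Calm2 and Calm3, named after their values were seen, had log2 fold changes of -1.48 and -1.92 and passed the test (edgeR adjusted p = 1.1e-05 and 5.8e-06). The related Calml4, at -1.41, did not pass (edgeR adjusted p = 0.055). The fold changes of Calm2 and Calm3 were smaller than those of the 9 members that fell, a difference that was not tested.

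Among 17 other CaM kinases and their regulators 10 were lower and 3 higher. The largest fall was that of Dclk3, a doublecortin-like kinase, at -5.21 ± 0.36 (log2 fold change, SE; edgeR adjusted p = 4.7e-06). The largest rise was that of Mknk2, a kinase of the translation factor eIF4E, at 0.99 ± 0.19 (edgeR adjusted p = 0.0013). Camk2n1, an inhibitor of CaM kinase II named after its values were seen, went from 910 ± 172 to 37.7 ± 20.2 CPM (log2 fold change -4.59; edgeR adjusted p = 1.5e-05), so that the inhibitor fell along with the kinase. The other higher genes, also named after their values were seen, were Camk1 (log2 fold change 0.98) and Dapk3 (0.46), of which Dapk3 lost its call in 6 of 16 alternatives.

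Of 11 other genes of the neuronal calcium sensor family 10 were tested, and 5 were lower, 2 higher and 3 not called. The 5 were Kcnip2, Hpcal4 (-6.21), Kcnip4 (-5.04), Ncald (-3.09) and Ncs1 (-1.97 on the log2 scale), the last 4 named after their values were seen. Ncald did not pass without brain 3 (edgeR adjusted p = 0.051) and was at -4.35 without tumour 4. Kcnip2, a subunit of A-type potassium channels, fell most, from 73.4 ± 11.9 to 0.76 ± 0.33 CPM (log2 fold change -6.51; edgeR adjusted p = 6.3e-07). Guca1a, a guanylate cyclase activator of photoreceptors, was higher in the tumours (edgeR adjusted p = 0.0021), but it had 3 fragments in all brains together, giving a ratio of 24.1 with a counting interval of 8.24 to 117. Guca1b was the other gene called higher (named after its values were seen). With a filter of 5 CPM in 3 libraries 0 of this list were called higher, because neither of these genes was then tested.

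Among 12 other EF-hand sensors and buffers, such as calbindin and parvalbumin, all 11 tested were lower, with a median of -3.52. Caln1, calneuron 1, fell most, at -5.70 ± 0.55 (log2 fold change, SE; edgeR adjusted p = 2.7e-05). The 6 proteins that store calmodulin at membranes or are kin to them, the group of neurogranin, were mixed, with 2 lower, 1 higher and a median of -0.14. Pcp4, a calmodulin-binding peptide of Purkinje cells, fell by 3.98 on the log2 scale (edgeR adjusted p = 0.00031), and Marcksl1, a substrate of protein kinase C, rose by 2.03 (edgeR adjusted p = 0.0028). Basp1, named after its values were seen, was the other gene that fell, by 0.47, and it did not pass with library size as the only scaling or without brain 3 (edgeR adjusted p = 0.066 and 0.061).

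Calcineurin, the calmodulin-dependent phosphatase, and its regulators had 5 lower and 3 higher of 12 tested, with a median of -0.47, which is near the background of all genes. Its catalytic subunit gene Ppp3ca went from 1130 ± 223 to 148 ± 28.6 CPM (log2 fold change -2.93; edgeR adjusted p = 4.6e-06). Nfatc4, a transcription factor that calcineurin activates, rose from 0.85 ± 0.59 to 5.41 ± 1.59 CPM (log2 fold change 2.62; edgeR adjusted p = 0.0021). The other 2 higher genes, Nfatc1 and Nfatc3, are of the same family, and the other 4 lower ones were Ppp3cb, Ppp3r1, Rcan2 and Cabin1 (all 6 named after their values were seen). Inositol trisphosphate kinases and receptors, the group of Itpka, had 3 lower and 3 higher of 9, with a median of -0.13, again near the background. Itpr1, the receptor typical of neurons, fell by 2.90 on the log2 scale (edgeR adjusted p = 2.6e-06), whereas Itpr3 rose from 3.71 ± 0.39 to 99.8 ± 72.3 CPM (log2 fold change 4.74; edgeR adjusted p = 0.0017). Itpr2 and Itpkc were also higher, and Inpp1 and Itpk1 also lower (named after their values were seen; Itpk1 lost its call in 8 of 16 alternatives). Itpkb, the broadly expressed paralog of Itpka and named after its values were seen, did not pass (0.25 ± 0.38 on the log2 scale, SE; edgeR adjusted p = 0.57; -0.11 without tumour 4).

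Cyclases and phosphodiesterases regulated by calmodulin had 5 lower of 6 and 0 higher by edgeR, DESeq2 or limma, and the 1 positive fold change among them had an unadjusted p of 0.53. Adcy1, the calmodulin-stimulated adenylyl cyclase, fell from 1617 ± 300.1 to 23.4 ± 5.54 CPM (log2 fold change -6.11 ± 0.25, SE; edgeR adjusted p = 4.2e-07), close to the fall of Camk2a. Adcy8, Pde1a, Adcy3 and Pde1b also fell (named after their values were seen). Of 12 nuclear substrates of CaM kinases 8 were lower and 2 higher, led by Mef2c at -4.86 and Atf1 at 1.71 (log2 fold changes; edgeR adjusted p = 5.7e-07 and 0.0024). Of 12 scaffold and anchoring partners of CaM kinase II 10 were lower and 2 higher, with a median of -3.00. Here 2 alpha-actinin genes went opposite ways: Actn2, the form of dendritic spines, fell by 5.70 on a base of 9 fragments in all tumours (edgeR adjusted p = 7.7e-05; -6.66 without tumour 1), and Actn1, found in many cell types, rose by 1.92 (edgeR adjusted p = 0.0051). The second higher gene was Crem among the substrates, which lost its call in 8 of 16 alternatives, and Actn4 among the partners, both named after their values were seen.

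**Figure D4:**
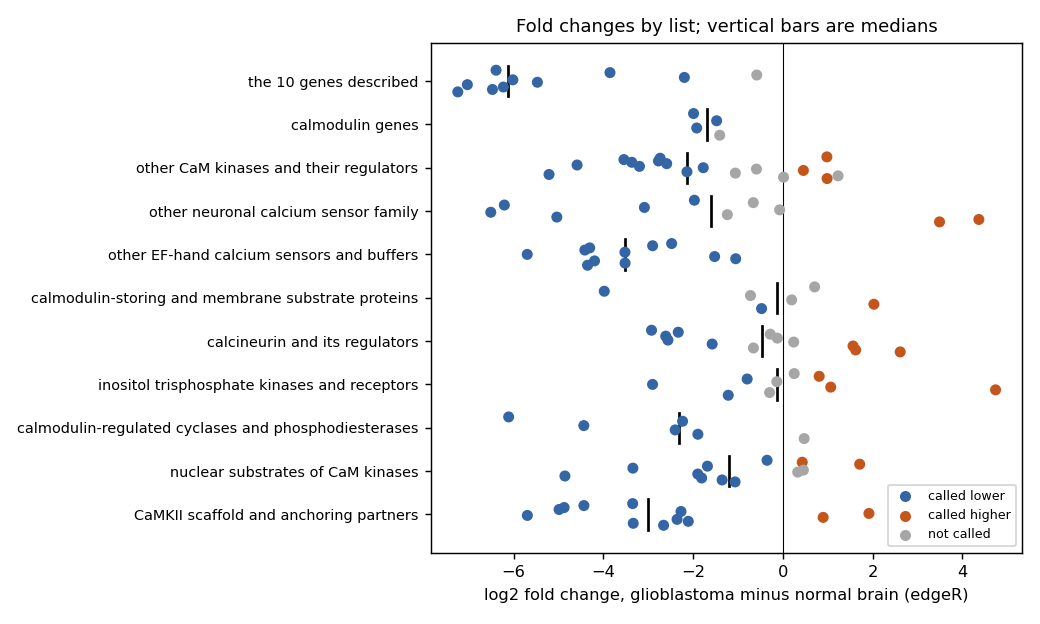
Log2 fold change, glioblastoma minus normal brain (edgeR), of the 10 genes and of each gene tested in the 10 pathway lists; 1 point is 1 gene, coloured by call, and the vertical bars are list medians. The 10 genes have a median of -6.12, and the list medians run from -3.52 for EF-hand sensors and buffers to -0.13 for inositol trisphosphate kinases and receptors.

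The genes whose centred log2 CPM profile over the 8 libraries was nearest to that of Camk2a were Slc17a7, the vesicular glutamate transporter of forebrain neurons, with a root mean square difference of 0.16, then Ryr2 (0.23) and Phf24 (0.23). Slc17a7 went from a mean of 808 CPM in the brains to 8.56 CPM in the tumours. Nearest to Hpca were Ddn, which encodes dendrin (0.33), Cpne6 (0.40) and Kcnip2 (0.43), again with tumour levels far below brain. For Camk2d the nearest were Sec22c (0.28), Myom1 (0.28) and Zfp618 (0.30), all with fold changes between -0.62 and -0.28 on the log2 scale. These are likenesses over 8 libraries in 2 groups, so any gene with the same difference between groups comes out near.

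Markers of neurons and of other cell types differed between the groups as well. All 6 markers of glutamatergic neurons were lower, with a median log2 fold change of -6.14 and a summed level of 1156 to 1222 CPM in the brains against 7.10 to 30.5 CPM in the tumours. All 6 GABAergic markers were lower too, with a median of -4.82 and sums of 751 to 856 against 16.2 to 40.8 CPM. Of 12 markers of neurons in general 8 were lower and 0 higher (edgeR), with sums of 9377 to 10297 CPM against 816 to 1161 CPM. No marker of these 3 lists was at 0 in all tumours. Among markers of other cells, 4 of 7 of astrocytes were lower, while 4 of 5 of endothelium and 3 of 4 of pericytes and smooth muscle were higher. Of 7 markers of microglia and macrophages 5 were higher and 1 lower, and of 6 of oligodendrocyte precursors 1 was higher and 1 lower. The part of these cell types in the pathway genes that rose was not tested. The part of neuron number in the falls of the 10 genes was not tested.

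Tumour 4 was the lowest library in the glutamatergic sum, at 7.10 CPM, and the lowest for Camk2a, Camk4, Vsnl1 and Nrgn. It was not the lowest in the other neuronal sums. Its GABAergic sum was 29.2 CPM, within the 16.2 to 40.8 CPM of the tumours, though its GABAergic mean log2 CPM, 0.37, was the lowest. Its sum of general neuron markers, 1161 CPM, was the highest of the tumours. Tumour 4 was the highest of the tumours, but below all brains, for Camk2b and Camkv. It was also the highest in 6 oligodendrocyte precursor markers, whose mean log2 CPM was 5.92, 2.26, 2.49, 6.81 and 3.37 in tumours 1 to 5 against 4.65 to 4.99 in the brains. Tumour 1 was second among the tumours in all 3 of these. Olig1, 1 of the 6, was at 93.1 CPM in tumour 1 and 266 CPM in tumour 4 and at 4.16 to 5.98 CPM in the other 3 tumours. This order was not particular to precursor markers. The 7 astrocyte markers also had tumour 4 highest and tumour 1 second among the tumours. Their mean log2 CPM was 7.04, 6.82, 6.24, 7.52 and 6.68 in tumours 1 to 5. For markers of myelinating oligodendrocytes tumour 4 was again the highest tumour, at 717 CPM in sum. The part of any of these cell types in the Camk2b and Camkv values was not tested.

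**Figure D5:**
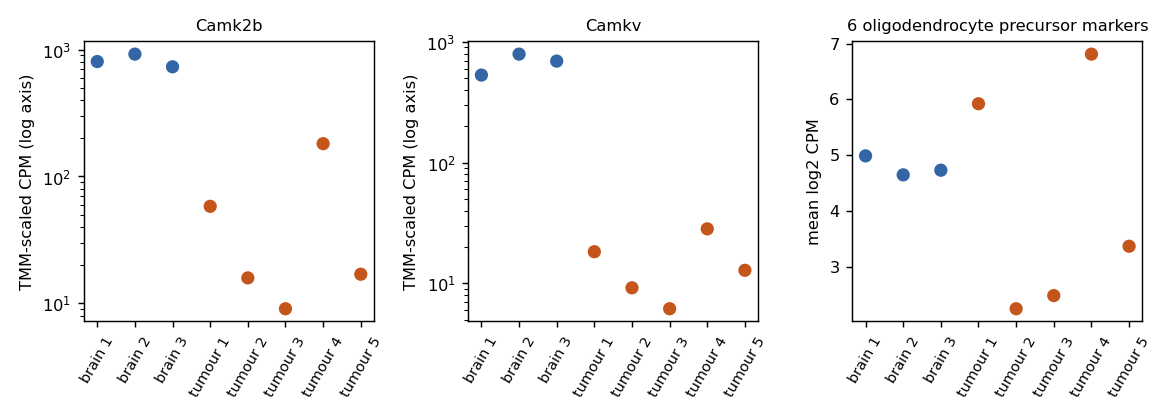
Camk2b and Camkv (TMM-scaled CPM, log axes) and the mean log2 CPM of 6 oligodendrocyte precursor markers in each library; 1 point is 1 library, brains in blue and tumours in orange. Tumours 4 and 1 are the highest tumours in all 3 panels, and also for the astrocyte markers, which are not drawn.

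The libraries held 5490351 to 15564280 fragments, and 3 fragments in 1 of them stand for 0.193 to 0.546 CPM. Hras was above every brain in all tumours (log2 fold change 2.05 ± 0.19, SE; edgeR adjusted p = 1.9e-05), in which viral and endogenous Hras RNA cannot be told apart. Trp53, the target of the hairpin, did not pass (log2 fold change -0.46 ± 0.35, SE; edgeR adjusted p = 0.26). Markers of dividing cells were higher in the tumours in 6 of 6, and of myelinating oligodendrocytes lower in 6 of 6.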

How the data were processed

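TruSeq libraries were made from DNase-treated column RNA, per the labels' protocols. The submitters' processing notes list STAR 2.3.0e, Cuffdiff 2.1.1 and the mm9 build. Strand setting, filters and annotation release were not given in the sources used here. Deposited by the authors was 1 table of estimated counts of fragments and FPKM values for 30967 RefSeq accessions in 8 libraries. Symbols came from RefSeq for 30474 accessions and from GENCODE for 178; the other 315 held 0.507% of fragments and kept their own identifiers. Where a gene had several accessions, 33.2% of the deposited estimated counts but 97.8% of their sums were whole within 0.01, so estimated counts were summed per gene and rounded, and deposited FPKM values were summed per gene.

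The test was edgeR 4.0.16 (R 4.3.3) with TMM factors, its default filter and the robust quasi-likelihood F test, with Benjamini-Hochberg adjustment over 14641 genes at 0.05. Each standard error is the fold change over the root of F, and intervals have 6 degrees of freedom; log2 CPM used a prior count of 2. Ratios were tested by exact permutation (scipy 1.17.1). On simulated data for this comparison (14358 genes, 200 changed) 70.5% of 4-fold and 20.6% of 2-fold changes were recovered, and 7.45% of calls were false. In the real data 33.9% of genes were called lower and 37.1% higher, a far larger share than was changed in the simulation. Its rates therefore need not hold for the real comparison. Alternatives were DESeq2 1.42.0, limma 3.58.1 on log2(FPKM + 1) and log2(FPKM + 0.1), other scaling and filters, each accession alone, and libraries left out. The 10 genes and the lists were chosen with earlier results of these data known. Named were all 10 genes, the called gene with the largest fall and the largest rise of each list (the most abundant where none was called), and the 3 genes nearest in profile to Camk2a, Camk2d and Hpca. The result for 1 gene named by this rule is not reported here. Exon positions are from GENCODE M21 (GRCm38), not from the build of the authors, and accession versions may differ from theirs. The lists hold Rcvrn, Scgn and Ppp3r2, which had too few fragments to be tested. Counting intervals cover counting error only. Overlapping and antisense genes cannot be told apart without strand.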

Additional observations from a re-analysis of the deposited data

Results flagged for a closer look

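Among the 5 tumours 2 values stood far from the other 4, out of 13 groups of tumour values examined, where chance flags about 1 in 20 groups. Camk2b in tumour 4, at 181 CPM, was far above the next tumour at 58.2 CPM. Itpka in tumour 1, at 2.33 CPM, was above the next at 1.11 CPM, a value that rests on 15 fragments.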

How the results depend on the processing

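No paired analysis was possible because neither the labels nor the deposited table name an animal, litter or batch shared between the groups, and the numbers of the libraries only count them within a group. Over 16 alternatives for each gene, 9 of the 10 genes stayed lower in all of them, and Camk2d passed in 2 (without brain 1, and without brain 1 and tumour 4, at -0.83). Members called lower numbered 9, or 10 in those 2 settings. For all genes tested library size alone moved the median log2 fold change from 0.06 to 0.20. Taken by themselves, 3 accessions had a positive sign where the gene was negative: NM_001174054 of Camk2b at 1.03, NM_001025438 of Camk2d at 0.46 and NM_001039138 of Camk2g at 0.18; none passed the test. On log2(FPKM + 1), which understates low genes, Camk4 was at -4.64 and Itpka at -5.97. Camk2b was at -4.5 there (-4.73 with 0.1 added), a larger fall than the -3.85 of edgeR. Leaving out 1 library gave log2 ratio differences from 0.85 to 2.07 for Camk2b to Camk2a, 5.64 to 6.48 for Camk2d and 3.99 to 4.44 for Camk2g, where no exact test can pass (smallest p 0.057 without a tumour and 0.095 without a brain). Without brain 1 and tumour 4 the differences were 0.89, 5.5 and 4.18 (exact permutation test, smallest possible p 0.13). Among list counts, nuclear substrates called higher went from 2 to 1 in 8 settings, and calmodulin-storing proteins called lower from 2 to 1 with library size alone and without brain 3 (Basp1 lost its call there), and called higher from 1 to 2 without tumour 3; the cause was not tested. Crem lost its call in 8 settings, Itpk1 in 8, Dapk3 in 6 and Ncald in 1 (without brain 3; -4.35 without tumour 4), while Calml4 passed in 3 (-0.73 without brain 1, where it did not pass). Itpkb, which never passed, ran from -0.11 (without tumour 4) to 0.41 with 1 library left out and was at -0.10 without brain 1 and tumour 4. Guca1a was at 5.20 on the log2 scale without brain 3. Depth limits Itpka and Nrgn in the tumours, at 5 to 48 fragments per library.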
